A study of Homo sapiens with 9 samples.

Results

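The comparison set 2 small interfering RNAs against the same gene beside each other: H1299 cells transfected with siFOXN3-2 and H1299 cells transfected with siFOXN3-1. It used 6 of the 9 samples of the series, 3 for each siRNA, and a gene entered if it averaged 1 FPKM or more in these 6 samples (12339 of 34789 genes). FPKM is the number of sequenced fragments of a gene, scaled by its exon length and by the depth of the sample, and a log2 difference is the siFOXN3-2 mean minus the siFOXN3-1 mean of log2(FPKM + 1), on which limma, a linear model that shares the spread between genes, was fitted. The 3 siControl samples, H1299 cells given a control siRNA, are quoted as levels only. H1299 is an established human non-small cell lung cancer line with epithelial-like growth that lacks p53. In all 3 groups the siRNA was given at 50 nM with Lipofectamine RNAiMAX to cells at 30 to 50% density, and polyadenylated RNA was sequenced. The titles name siFOXN3-2 for 3 replicates, but the treatment labels of its replicates 2 and 3 name siFOXN4 and siFOXN5 as the siRNA, and the siFOXN3-2 labels speak of another RNAiMAX of the same type. Nothing in the labels says that replicates were separate cultures, so a p-value here weighs only how these samples scatter, and that scatter may be technical. All results come from 1 cell line.

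FOXN3 encodes a forkhead transcription factor that mostly represses its targets. An siRNA is loaded into an Argonaute protein, and its guide strand directs cleavage of transcripts that match it along their length. Through the bases near its 5′ end, called the seed, a guide can also lower transcripts that match it over a short stretch of the 3′ UTR, in the manner of a microRNA. siRNAs against different stretches of 1 gene share the target and, in general, not the seed, and setting them beside each other asks how far profiles of the same knockdown differ.

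Between 17.01 and 19.1 M fragments were sequenced per sample in the 6 samples, and 24850 to 25567 genes had an FPKM above 0. Over genes, which are not independent replicates, log2 values correlated at 0.989 to 0.993 within the 6 pairs of samples of the same siRNA and at 0.975 to 0.981 over the 9 pairs of different siRNAs. The mean chi-square per gene of recovered reads was 4.21 to 14.4 within pairs of the same siRNA and 30.6 to 43.5 between siRNAs, so no pair of samples agreed within sampling noise. Messenger RNAs of the mitochondrial genome took 5.52 to 6.98% of the summed FPKM with siFOXN3-2 and 5.50 to 6.99% with siFOXN3-1. The line markers KRT8, KRT18 and VIM were high in every sample. Of the lung epithelial differentiation markers, 6 of 9 were listed, and their summed level was 3.06 to 3.36 FPKM with siFOXN3-2 and 2.89 to 3.04 FPKM with siFOXN3-1.

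FOXN3 (chr14:89124871-89619149, minus strand, GRCh38, GENCODE 29) was low with either siRNA. It had 0.858, 0.958 and 1.06 FPKM with siFOXN3-2, against 1.28, 1.24 and 1.16 FPKM with siFOXN3-1, and 4.85, 5.25 and 5 FPKM in siControl. These means were 19.0% of the siControl mean with siFOXN3-2 and 24.3% with siFOXN3-1. FOXN3 passed the filter through siFOXN3-1 alone (mean 1.22 FPKM, against 0.958 with siFOXN3-2), so its difference is given as a description. The siFOXN3-2 samples lay below all siFOXN3-1 samples, also the 2 whose treatment labels name another siRNA, but the difference did not pass the test (log2 difference -0.18 ± 0.09 SE, limma adjusted p = 0.17). An exact two-sided permutation test gave p = 0.1, the smallest that 3 against 3 samples allow. With voom, which fits read counts, on reads recovered from the FPKM, the log2 difference was -0.36 with an adjusted p of 0.0294. Whether FOXN3 passed thus depended on the method, and given how it entered, none of these p-values is read as support for a difference.

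The study also concerns partners and regulators around FOXN3, of which 11 of 15 genes listed passed the filter, FOXN3 included. None was called between the siRNAs, with log2 differences from -0.19 for BTRC to 0.21 for RPS6KA1 and a median of 0.01, which turned to -0.09 under median ratio scaling and to -0.02 under quantile normalization. BTRC, a substrate receptor of an SCF ubiquitin ligase, averaged 1.58 ± 0.138 FPKM with siFOXN3-2, against 1.94 ± 0.304 with siFOXN3-1 (SD, n = 3 each), and 4.78 ± 0.405 FPKM in siControl. SIN3A and SIN3B, scaffolds of a co-repressor complex, had log2 differences of 0.12 and 0.16, HDAC1 and HDAC2, its deacetylases, -0.01 and 0.12, and RPS6KA3, a ribosomal S6 kinase, -0.03. Without siFOXN3-2 replicate 2, RPS6KA1 (0.31, limma adjusted p = 0.0326), SIN3B (0.27, adjusted p = 0.0333) and SIN3A (0.21, adjusted p = 0.0483) passed. With siFOXN3-2 replicate 1 alone against the siFOXN3-1 samples, the RPS6KA1 difference was 0.41.

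Many genes differed between the siRNAs, mostly by little. With limma at an adjusted p under 0.05, 2584 genes (20.9% of those tested) were higher and 1138 (9.22%) lower with siFOXN3-2 than with siFOXN3-1, 30.2% in all. The median absolute log2 difference of these calls was 0.37, and 77.2% of them were under 0.5. Only 13 genes (0.105%) were called higher by 1 or more on the log2 scale and 34 (0.276%) lower. In 5719 genes (46.3%) the 3 samples of each siRNA did not overlap. The balance of directions depended on the scaling: 69.4% of calls were higher in FPKM as deposited, 45.4% (1349 higher, 1623 lower) with median ratio scaling and 50.6% (1577 higher, 1538 lower) with quantile normalization, while the median difference over all genes was 0.08, 0.0035 and 0.02. Setting siFOXN3-2 replicate 1 alone, the sample whose treatment label names the siRNA of its title, against the 3 siFOXN3-1 samples left 841 higher and 545 lower, of which 776 and 509 were also called with all 6 samples. That fit takes its spread from the siFOXN3-1 samples alone. Leaving out siFOXN3-1 replicate 2 left 1264 higher and 647 lower.

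**Figure D1:**
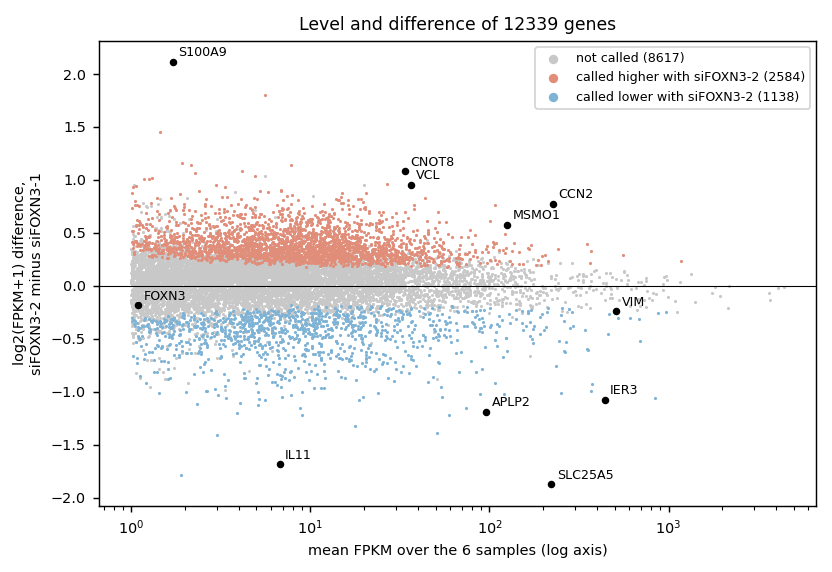
Each point is 1 of the 12339 tested genes, with its mean FPKM over the 6 samples on a log x axis and its log2(FPKM+1) difference, siFOXN3-2 minus siFOXN3-1, on the y axis. Called genes are coloured (2584 higher, 1138 lower), named genes are black, and SLC25A5 and IL11 stand far below the bulk while S100A9 stands above it.

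The 14 largest called falls with siFOXN3-2 took in metabolic, secreted and adhesion genes, and SLC25A5 led them. SLC25A5 (chrX:119468400-119471319, plus strand), an ADP/ATP carrier of the inner mitochondrial membrane, had 84.9, 106 and 92.1 FPKM with siFOXN3-2, against 318, 351 and 378 FPKM with siFOXN3-1. Its siFOXN3-2 values were 0.271 times those of siFOXN3-1 on average (log2 difference -1.88 ± 0.10 SE, limma adjusted p = 9.42e-05), and siControl, at 322, 302 and 299 FPKM, lay beside siFOXN3-1. APLP2 (chr11:130068147-130144811, plus strand), a relative of the amyloid precursor protein, showed the same order, with 56, 58.8 and 59.9 FPKM with siFOXN3-2, against 141, 133 and 128 FPKM with siFOXN3-1 (log2 difference -1.19 ± 0.06 SE, limma adjusted p = 9.42e-05), and 149, 151 and 148 FPKM in siControl. SHMT2 (chr12:57229327-57234935, plus strand), the mitochondrial enzyme that feeds serine into one-carbon metabolism, had 9.02, 10.2 and 9.74 FPKM with siFOXN3-2, against 25, 25.9 and 26.1 FPKM with siFOXN3-1 (log2 difference -1.33 ± 0.07 SE, limma adjusted p = 9.42e-05), and 31.4, 28.1 and 30.7 FPKM in siControl. For these genes the siFOXN3-2 samples were the ones that stood apart from the other 6 samples of the series.

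IL11 (chr19:55364389-55370463, minus strand), a cytokine of the interleukin 6 family, showed the opposite arrangement. It had 2.66, 2.66 and 2.69 FPKM with siFOXN3-2, against 10.8, 10.8 and 10.7 FPKM with siFOXN3-1 (log2 difference -1.68 ± 0.06 SE, limma adjusted p = 1.43e-05), and 2.38, 2.73 and 2.6 FPKM in siControl. The siFOXN3-1 samples stood alone here, about level with each other, while the siFOXN3-2 and siControl samples lay close together. TFPI2, an extracellular protease inhibitor, had 31.9, 39.8 and 34.2 FPKM with siFOXN3-2, against 83.7, 80.8 and 85.5 FPKM with siFOXN3-1 (log2 difference -1.22 ± 0.08 SE, limma adjusted p = 2.40e-04), and RHOB, a small GTPase of endosomes and the cytoskeleton, 43, 48.1 and 44.2 FPKM with siFOXN3-2, against 88.6, 103 and 115 FPKM with siFOXN3-1 (log2 difference -1.16 ± 0.10 SE, limma adjusted p = 3.25e-04). In siControl, TFPI2 had 20.8, 20.0 and 21 FPKM and RHOB 38.6, 35.9 and 35.1 FPKM, below every siRNA sample for both genes. KRTAP2-3, a keratin-associated protein gene of a multigene family whose reads may be split between copies, averaged 4.94 ± 0.168 FPKM with siFOXN3-2, against 12.9 ± 2.19 with siFOXN3-1, and 0.281 ± 0.19 FPKM in siControl, and LINC00659, a long non-coding RNA, 1.16 ± 0.809 FPKM with siFOXN3-2, against 3.49 ± 0.37 with siFOXN3-1, and 0.162 ± 0.0583 FPKM in siControl.

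MTPN, which encodes the capping-protein inhibitor myotrophin, had 24.2, 29.4 and 29.1 FPKM with siFOXN3-2, against 78.6, 74.8 and 67.8 FPKM with siFOXN3-1 (log2 difference -1.39 ± 0.09 SE, limma adjusted p = 2.12e-04), and siControl, at 50.3, 50.1 and 49.5 FPKM, lay between them. CPEB4, a cytoplasmic polyadenylation factor, had 1.67, 1.95 and 2.27 FPKM with siFOXN3-2, against 5.93, 5.89 and 5.61 FPKM with siFOXN3-1 (log2 difference -1.21 ± 0.09 SE, limma adjusted p = 2.75e-04), and its 3.65, 4.45 and 4.1 FPKM in siControl also lay between. The remaining falls of this group were ITGA2, the collagen-binding integrin subunit (difference -1.12), RIDA, an enamine deaminase (-1.15), TMCC3 (-1.11) and UBTD2 (-1.08). Without the filter on low values, LINC00659 missed the threshold (adjusted p = 0.0621).

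Apart from S100A9 and NXF2, given below, the 14 largest called rises under the same conditions were between 0.89 and 1.14 on the log2 scale. Of the 13 genes called higher by 1 or more, 7 were not among the genes chosen for naming. CNOT8 (chr5:154857553-154876793, plus strand), a deadenylase subunit of the CCR4-NOT complex that shortens poly(A) tails, had 45.1, 48.6 and 45.4 FPKM with siFOXN3-2, against 22, 20.8 and 21.2 FPKM with siFOXN3-1 (log2 difference 1.08 ± 0.06 SE, limma adjusted p = 1.17e-04). Its siFOXN3-2 samples stood alone, since siControl had 22.9, 19.9 and 21.3 FPKM. In most of the others all siFOXN3-1 samples lay below siControl. VCL (chr10:73995193-74121363, plus strand), vinculin, which ties integrin adhesions to actin, had 52, 41 and 52.3 FPKM with siFOXN3-2, against 24.3, 25.1 and 23.6 FPKM with siFOXN3-1 (log2 difference 0.96 ± 0.10 SE, limma adjusted p = 5.57e-04), and 47.2, 53.8 and 51.2 FPKM in siControl. ACP2, lysosomal acid phosphatase, had 3.22, 3.53 and 3.24 FPKM with siFOXN3-2, against 0.961, 1.13 and 0.82 FPKM with siFOXN3-1 (log2 difference 1.14). Its 8.49, 8.21 and 8.31 FPKM in siControl lay above both siRNA groups. ACP2 passed the filter through siFOXN3-2 alone, so its difference is given as a description.

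PPIP5K2, an inositol pyrophosphate kinase, averaged 6.03 ± 0.304 FPKM with siFOXN3-2, against 2.32 ± 0.219 with siFOXN3-1 (difference 1.08), SCOC, a short coiled-coil protein of the Golgi, 7 ± 1.55 FPKM with siFOXN3-2, against 2.84 ± 0.132 with siFOXN3-1 (1.04), and CPNE3, a calcium-dependent phospholipid-binding copine, 35.7 ± 2.67 FPKM with siFOXN3-2, against 17.8 ± 0.837 with siFOXN3-1 (0.96). MFAP3 (0.95), LLPH (0.94), TRIM23 (0.90) and ARMCX5 (0.90) were also among the 14, with the pseudogenes FRG1JP (0.91) and DNAJC19P5 (0.89), whose reads may belong to their parent genes. For SCOC, VCL, MFAP3 and FRG1JP the siControl range overlapped the siFOXN3-2 range. NXF2, an RNA export factor gene of the X chromosome with a near-identical copy, had the second largest rise of the 14 but uneven values. It had 10.4, 5.3 and 11.8 FPKM with siFOXN3-2, against 3.37, 1.92 and 0.682 FPKM with siFOXN3-1, and 11.5, 0.378 and 4.06 FPKM in siControl. The call of NXF2 was lost with all 9 samples in the limma fit and without the low-value filter (highest adjusted p = 0.0613).

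**Figure D2:**
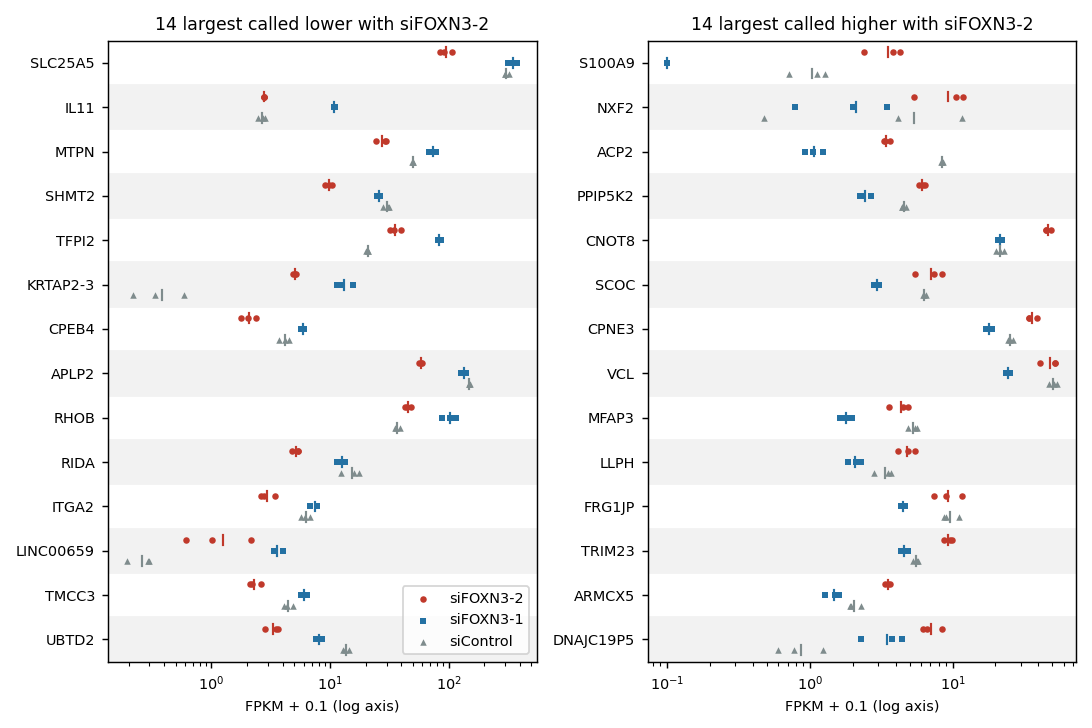
The values of every sample are drawn for the 14 largest called falls (left panel) and rises (right panel), as FPKM + 0.1 on a log axis, with siFOXN3-2 as red circles, siFOXN3-1 as blue squares, siControl as grey triangles and group means as ticks. SLC25A5, SHMT2 and APLP2 have siFOXN3-2 apart from both other groups, IL11 has siFOXN3-1 apart, and S100A9 is at 0 in all siFOXN3-1 samples.

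The largest rise of all belonged to S100A9 (chr1:153357854-153361027, plus strand), a calcium-binding protein of neutrophils and monocytes. It had 4.18, 3.76 and 2.3 FPKM with siFOXN3-2, against 0, 0 and 0 FPKM with siFOXN3-1, that is 41, 40 and 24 reads with siFOXN3-2 and none with siFOXN3-1. In siControl it had 1.02, 1.17 and 0.62 FPKM. This gene passed the filter through siFOXN3-2 alone, so its difference is given as a description. Most immune markers ran the same way, 10 of 12 having a higher mean with siFOXN3-2, CD68 and ITGAM a lower one. Summed over 12 immune markers the level was 2.47 to 3.11 FPKM with siFOXN3-2, 0.718 to 0.857 with siFOXN3-1 and 1.19 to 1.99 in siControl, and no marker was at 0 in all 6 samples. LYZ, lysozyme, gave 48, 51 and 39 reads with siFOXN3-2 and 1, 1 and 2 with siFOXN3-1, and PTPRC, the pan-leukocyte marker CD45, 31, 23 and 24 reads against none. None of the 12 immune and none of the 7 endothelial markers reached the filter. Summed over 7 endothelial markers the level was 0.316 to 0.460 FPKM with siFOXN3-2 and 0.465 to 0.644 with siFOXN3-1.

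Of 9 fibroblast markers, 7 had a higher mean with siFOXN3-2 than with siFOXN3-1, while FAP and PDGFRB had a lower one. Their sum was 2.98 to 4.75 FPKM with siFOXN3-2, 0.674 to 0.893 with siFOXN3-1 and 1.08 to 1.35 in siControl. COL1A1, a chain of type I collagen, was the only marker to reach the filter, through siFOXN3-2 alone, with 2.18, 1.36 and 1.32 FPKM with siFOXN3-2, against 0.57, 0.441 and 0.459 FPKM with siFOXN3-1 and 1, 0.886 and 0.765 FPKM in siControl. COL1A2, its partner chain, gave 231, 151 and 161 reads with siFOXN3-2, 6, 3 and 3 with siFOXN3-1 and 2, 3 and 5 in siControl, and COL3A1 114, 82 and 89 with siFOXN3-2, 6, 8 and 3 with siFOXN3-1 and 11, 12 and 13 in siControl. The part of these traces in the S100A9 and COL1A1 values was not tested. In bulk RNA, fewer cells of a type and less RNA per cell cannot be told apart.

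Most immediate early genes, transcribed within minutes of growth factor or stress signals, were called lower with siFOXN3-2. Of this list, 1 was called higher and 18 lower of 30 tested, with a median log2 difference of -0.30, beside 20.9% higher, 9.22% lower and a median of 0.08 over all genes. IER3, an early growth and survival gene, had 276, 309.8 and 263 FPKM with siFOXN3-2, against 603, 567 and 621 FPKM with siFOXN3-1 (log2 difference -1.08 ± 0.08 SE, limma adjusted p = 2.75e-04), and 82, 80.9 and 75.9 FPKM in siControl. ZFP36L1, which promotes decay of AU-rich transcripts, averaged 257 ± 15.3 FPKM with siFOXN3-2, against 489.7 ± 9.45 with siFOXN3-1 (difference -0.93), NR4A2, an orphan nuclear receptor, 50.9 ± 3.59 FPKM with siFOXN3-2, against 79.3 ± 2.36 with siFOXN3-1 (-0.63), and DUSP5, a nuclear ERK phosphatase, 201 ± 3.47 FPKM with siFOXN3-2, against 289.7 ± 6.2 with siFOXN3-1 (-0.52). Against these, siControl averaged 62.5 ± 3.41 FPKM, 9.08 ± 0.912 FPKM and 27.2 ± 1.73 FPKM. All 4 genes thus lay above siControl with either siRNA, and less so with siFOXN3-2. The AP-1 subunit JUN (-0.75), MYC (-0.49) and EGR1 (-0.39) were among the 18, and KLF2 was the 1 call in the other direction (0.36).

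Most matrix and adhesion genes were called lower too. In this list, 1 was called higher and 16 lower of 26 tested, with a median log2 difference of -0.35. ITGA2 had 2.68, 2.5 and 3.34 FPKM with siFOXN3-2, against 7.69, 7.67 and 6.64 FPKM with siFOXN3-1 (log2 difference -1.12 ± 0.10 SE, limma adjusted p = 3.87e-04), and ITGAV, the integrin subunit of vitronectin receptors, 6.89, 8.13 and 8.16 FPKM with siFOXN3-2, against 17.7, 15.5 and 14.9 FPKM with siFOXN3-1 (log2 difference -0.96 ± 0.09 SE, limma adjusted p = 4.18e-04). MMP14, a membrane-bound collagenase, averaged 48.6 ± 0.319 FPKM with siFOXN3-2, against 86.3 ± 6.36 with siFOXN3-1 (difference -0.81), and LAMB3, a chain of laminin 332, 23.1 ± 0.347 FPKM with siFOXN3-2, against 41.4 ± 1.99 with siFOXN3-1 (-0.81). In siControl, MMP14 averaged 47.2 ± 2.41 FPKM and LAMB3 28.7 ± 1.25 FPKM, near the siFOXN3-2 level for MMP14 and between the siRNAs for LAMB3. ITGA3, an integrin subunit (-0.58), and the urokinase gene PLAU (-0.50) were called lower as well. The 1 call higher was COL1A1, given above with the fibroblast markers, which passed the filter through siFOXN3-2 alone.

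Cytokine and TGF-beta genes had fewer members but large differences. Of the NF-kappaB and cytokine list, 1 was called higher and 8 lower of 16 tested, with a median log2 difference of -0.20. IL11 is given above, and LIF, its relative, had 34.1, 34.4 and 36.2 FPKM with siFOXN3-2, against 65.7, 76.6 and 78.7 FPKM with siFOXN3-1 (log2 difference -1.05 ± 0.08 SE, limma adjusted p = 2.75e-04), and 8.28, 10.9 and 10.6 FPKM in siControl. The chemokine CXCL1 averaged 0.518 ± 0.102 FPKM with siFOXN3-2, against 1.73 ± 0.178 with siFOXN3-1 (difference -0.85) and passed the filter through siFOXN3-1 alone, and NFKBIA, the feedback inhibitor of NF-kappaB, averaged 7.61 ± 0.473 FPKM with siFOXN3-2, against 11 ± 0.0768 with siFOXN3-1 (-0.48). Of the TGF-beta signalling list, 4 were called higher and 9 lower of 22 tested, with a median log2 difference of -0.13. SMAD7, an inhibitory SMAD induced by TGF-beta, had 3.01, 2.47 and 2.83 FPKM with siFOXN3-2, against 5.91, 5.79 and 5.94 FPKM with siFOXN3-1 (log2 difference -0.87 ± 0.08 SE, limma adjusted p = 3.99e-04), and 4.04, 4.23 and 4.5 FPKM in siControl. The receptor subunit TGFBR2 (-0.62) and SMAD3 (-0.43) were lower too, while ID2 (0.57), BMP4 (0.57), TGFBR3 (0.30) and SMAD4 (0.28) were higher, BMP4 having passed the filter through siFOXN3-2 alone.

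YAP and TEAD targets were split by a single large rise. Of this list, 1 was called higher and 6 lower of 23 tested, with a median log2 difference of -0.11. CCN2, connective tissue growth factor, had 299, 289.8 and 269.9 FPKM with siFOXN3-2, against 167, 163 and 169.7 FPKM with siFOXN3-1 (log2 difference 0.78 ± 0.06 SE, limma adjusted p = 3.25e-04), and 27.3, 27.3 and 28.5 FPKM in siControl, so either siRNA lay above siControl and siFOXN3-2 highest. NT5E, the ecto-nucleotidase CD73, had 64.2, 65.7 and 69 FPKM with siFOXN3-2, against 122, 114 and 109.9 FPKM with siFOXN3-1 (log2 difference -0.79 ± 0.07 SE, limma adjusted p = 3.25e-04), and siControl, at 158, 168 and 159 FPKM, lay above both. AXL, a receptor tyrosine kinase (-0.53), and YAP1 itself (-0.37) were called lower, as was GADD45A, a growth arrest gene also on the p53 list (-0.61). The targets CCN1, with a difference of -0.20, and ANKRD1, with 0.18, were not called.

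Glycolytic and hypoxia-induced genes tended to fewer calls, nearly all lower. For glycolysis, 1 was called higher and 7 lower of 22 tested, with a median log2 difference of -0.15, and for hypoxia targets, 0 were called higher and 6 lower of 21 tested, with a median log2 difference of -0.09. PFKP, the platelet-type phosphofructokinase, averaged 34 ± 3.19 FPKM with siFOXN3-2, against 62.4 ± 2.93 with siFOXN3-1 (difference -0.86), and SLC2A1, the glucose transporter GLUT1, 74.2 ± 1.85 FPKM with siFOXN3-2, against 91.3 ± 1.78 with siFOXN3-1 (-0.30). PLOD2, a collagen lysyl hydroxylase, averaged 18.8 ± 1.86 FPKM with siFOXN3-2, against 35.1 ± 2.93 with siFOXN3-1 (-0.87), ANGPTL4, a lipoprotein lipase inhibitor, 282 ± 21.4 FPKM with siFOXN3-2, against 429.7 ± 22.6 with siFOXN3-1 (-0.61), and DDIT4, an inhibitor of mTORC1, 277 ± 19.6 FPKM with siFOXN3-2, against 419.8 ± 25.8 with siFOXN3-1 (-0.60). The medians of the list of immediate early genes and of the matrix, cytokine, TGF-beta, YAP, glycolysis and hypoxia lists stayed below 0 under all 3 scalings. For lists already below 0 this is a weak check. The median over all genes went from 0.08 to 0.0035 with median ratio scaling and to 0.02 with quantile normalization. It stayed at 0.08 with an equal sum of FPKM. The line markers KRT8 (-0.51), KRT18 (-0.42) and VIM (-0.24) were all called lower, and the call of VIM ended in 10 of 20 alternatives.

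**Figure D3:**
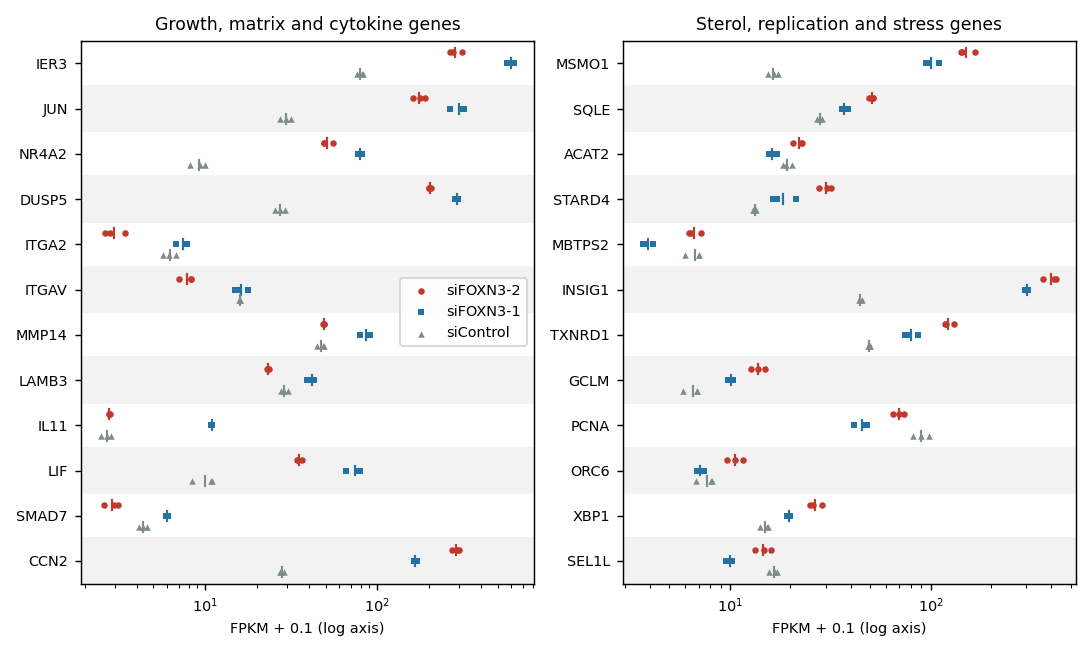
The values of every sample are drawn for 24 members of the lists as FPKM + 0.1 on a log axis, with siFOXN3-2 as red circles, siFOXN3-1 as blue squares, siControl as grey triangles and group means as ticks. Left, siFOXN3-2 lies below siFOXN3-1 in all but CCN2. Right, it lies higher than siFOXN3-1 in all 12 genes. JUN and INSIG1 were picked for their place in the pathways.

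Most cholesterol synthesis enzymes were called higher with siFOXN3-2. Cells make cholesterol from acetyl-CoA through the mevalonate pathway, and when membrane sterol is low, the SREBP factors raise the enzymes together. Of the synthesis enzymes, 12 were called higher and 0 lower of 21 tested, with a median log2 difference of 0.24. MSMO1, the sterol C4-methyl oxidase, had 143, 167 and 141 FPKM with siFOXN3-2, against 109, 97.3 and 94.7 FPKM with siFOXN3-1 (log2 difference 0.58 ± 0.09 SE, limma adjusted p = 0.00254), and 17.2, 15.4 and 16.6 FPKM in siControl, and SQLE, squalene epoxidase, averaged 50.7 ± 1.11 FPKM with siFOXN3-2, against 37 ± 1.49 with siFOXN3-1 (difference 0.45), and 28 ± 0.695 FPKM in siControl. For both enzymes siControl was lowest and siFOXN3-2 highest with no overlap between groups.

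Of SREBP control and sterol uptake, 8 were called higher and 0 lower of 18 tested, with a median log2 difference of 0.21. STARD4, a cytosolic sterol carrier, had 27.7, 31.9 and 30.5 FPKM with siFOXN3-2, against 21.4, 17.1 and 16.3 FPKM with siFOXN3-1 (log2 difference 0.69 ± 0.10 SE, limma adjusted p = 0.00233), and 13.2, 12.9 and 13.4 FPKM in siControl. MBTPS2, the protease that releases SREBPs, averaged 6.51 ± 0.512 FPKM with siFOXN3-2, against 3.79 ± 0.235 with siFOXN3-1 (difference 0.65), and INSIG1, which holds SREBPs back in the endoplasmic reticulum, 398 ± 31.1 FPKM with siFOXN3-2, against 301 ± 5.59 with siFOXN3-1 (0.40). MYLIP, a ubiquitin ligase of the sterol response, was called higher (0.47). SREBF1 was also called higher (0.40), whereas SREBF2 had a difference of -0.13 (adjusted p = 0.231). Both sterol medians stayed above 0 under all 3 scalings. Fatty acid synthesis, also under SREBP control, was split: 3 were called higher and 4 lower of 20 tested, with a median log2 difference of -0.07, with ACSS2 higher (0.46) and MID1IP1 (-0.80) and ACLY (-0.43) lower.

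Because so many of the synthesis genes were called in 1 direction, their promoters were searched in RefSeq (GRCh38.p14, 250 bases before to 50 after the start). CCAAT, the letters of the box bound by NF-Y, was found on either strand in 12 of the 16 synthesis promoters with an entry (75%), against 35.7% of 27305 promoters of the same length and 37.2% of the 8956 of tested genes. The 16 promoters include those of enzymes that were not called. Of the synthesis enzymes called higher, 8 had an entry, and 7 of these held the letters (87.5%). Whether the box goes with the calls within the list was not tested. In SREBP control and sterol uptake genes CCAAT was found in 7 of 17 (41.2%). A match is a description of letters and not of binding. The MSMO1 promoter (chr4:165327419-165327718, plus strand), shown as that of the enzyme with the largest rise, holds the box 4 times, in capitals on either strand.
MSMO1 promoter: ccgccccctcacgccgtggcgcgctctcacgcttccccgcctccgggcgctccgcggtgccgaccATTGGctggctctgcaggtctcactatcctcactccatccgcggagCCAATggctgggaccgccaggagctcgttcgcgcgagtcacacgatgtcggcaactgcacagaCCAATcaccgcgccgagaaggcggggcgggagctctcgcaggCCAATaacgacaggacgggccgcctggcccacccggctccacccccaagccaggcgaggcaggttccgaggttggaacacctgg

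Cell division and genome maintenance genes were called higher more often than lower, with smaller differences and in shares not far above the 20.9% of all genes. Of DNA replication, 14 were called higher and 1 lower of 44 tested, with a median log2 difference of 0.15, of homologous recombination, 8 were called higher and 0 lower of 29 tested, with a median log2 difference of 0.18, of the Fanconi anaemia pathway, 5 were called higher and 0 lower of 15 tested, with a median log2 difference of 0.10, and of mitosis, 11 were called higher and 0 lower of 38 tested, with a median log2 difference of 0.14. PCNA, the sliding clamp of DNA polymerases, had 65.1, 73.8 and 69.5 FPKM with siFOXN3-2, against 47.9, 41.6 and 47.2 FPKM with siFOXN3-1 (log2 difference 0.60 ± 0.08 SE, limma adjusted p = 0.0014), with 97.6, 81.8 and 89.5 FPKM in siControl. ORC6, a subunit of the origin recognition complex, averaged 10.5 ± 0.959 FPKM with siFOXN3-2, against 6.98 ± 0.306 with siFOXN3-1 (difference 0.53), and FEN1, the flap endonuclease, 20.6 ± 0.65 FPKM with siFOXN3-2, against 15.2 ± 0.223 with siFOXN3-1 (0.42). MCM3, a subunit of the replicative helicase, was the call in the other direction, with 16, 15.8 and 15.7 FPKM with siFOXN3-2, against 25.6, 22.6 and 22.9 FPKM with siFOXN3-1 (log2 difference -0.55 ± 0.07 SE, limma adjusted p = 0.00107).

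Among repair genes FAAP100, a Fanconi core subunit (0.67), SHLD3, a shieldin subunit (0.57), XRCC4, an end joining factor (0.47), and MUS81, a structure-selective nuclease (0.45), were called higher, and BRCA1 was not called (-0.02). Of the mitotic genes, CDC25A, a phosphatase that activates cyclin-dependent kinases, rose most (0.49). MRE11 and FANCG were called higher (0.30 and 0.26) but not under median ratio scaling or quantile normalization (highest adjusted p over the alternatives 0.14 and 0.0828), and the calls of CCNA2 and TOP2A ended under median ratio scaling (highest adjusted p over the alternatives 0.133 and 0.132).

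Beside the 20.9% of all genes called higher and 9.22% lower, the unfolded protein response had a larger share of calls higher, and the apoptosis and NRF2 lists had shares near the one over all genes. Of the unfolded protein response, 8 were called higher and 1 lower of 22 tested, with a median log2 difference of 0.15. XBP1, its transcription factor, averaged 26.5 ± 1.91 FPKM with siFOXN3-2, against 19.7 ± 0.398 with siFOXN3-1 (difference 0.41), SEL1L, an adaptor of endoplasmic reticulum degradation, 14.6 ± 1.32 FPKM with siFOXN3-2, against 9.9 ± 0.337 with siFOXN3-1 (0.51), and the sensor ATF6 was the 1 call lower (-0.36). Of apoptosis regulators, 7 were called higher and 1 lower of 26 tested, with a median log2 difference of 0.19. The BH3-only gene PMAIP1 had 15.3, 19.6 and 15.1 FPKM with siFOXN3-2, against 9.55, 9.43 and 9.91 FPKM with siFOXN3-1 (log2 difference 0.72 ± 0.10 SE, limma adjusted p = 0.00161). BBC3, another BH3-only gene, averaged 10.0 ± 0.62 FPKM with siFOXN3-2, against 6.33 ± 0.77 with siFOXN3-1 (difference 0.59), and the anti-apoptotic MCL1 was lower (-0.42). Both BH3-only genes are also on the p53 target list, of which 8 were called higher and 5 lower of 24 tested, with a median log2 difference of 0.06 in this line without p53, a median that fell below 0 under median ratio scaling and quantile normalization.

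Of NRF2 and oxidative stress genes, 6 were called higher and 2 lower of 23 tested, with a median log2 difference of 0.13. TXNRD1, thioredoxin reductase, had 131, 117 and 119 FPKM with siFOXN3-2, against 86.8, 78.3 and 74.8 FPKM with siFOXN3-1 (log2 difference 0.61 ± 0.08 SE, limma adjusted p = 0.00131), and 49.8, 49.9 and 48.6 FPKM in siControl. GCLM, a subunit of the glutathione-synthesizing ligase (0.42), and KEAP1, the repressor of NRF2 (0.35), were higher. ATF4 targets were called in both directions: 5 were called higher and 4 lower of 24 tested, with a median log2 difference of -0.04. The share called higher, 20.8%, was that of all genes (20.9%), and 16.7% were called lower, against 9.22% of all genes. Of the ATF4 targets, SHMT2 is described above, and GDF15, a stress cytokine, averaged 7.54 ± 0.526 FPKM with siFOXN3-2, against 14.2 ± 0.992 with siFOXN3-1 (-0.83). MTHFD2, which acts next to SHMT2 in mitochondrial one-carbon metabolism, averaged 60.5 ± 2.88 FPKM with siFOXN3-2, against 46.2 ± 0.385 with siFOXN3-1 (0.38).

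**Figure D4:**
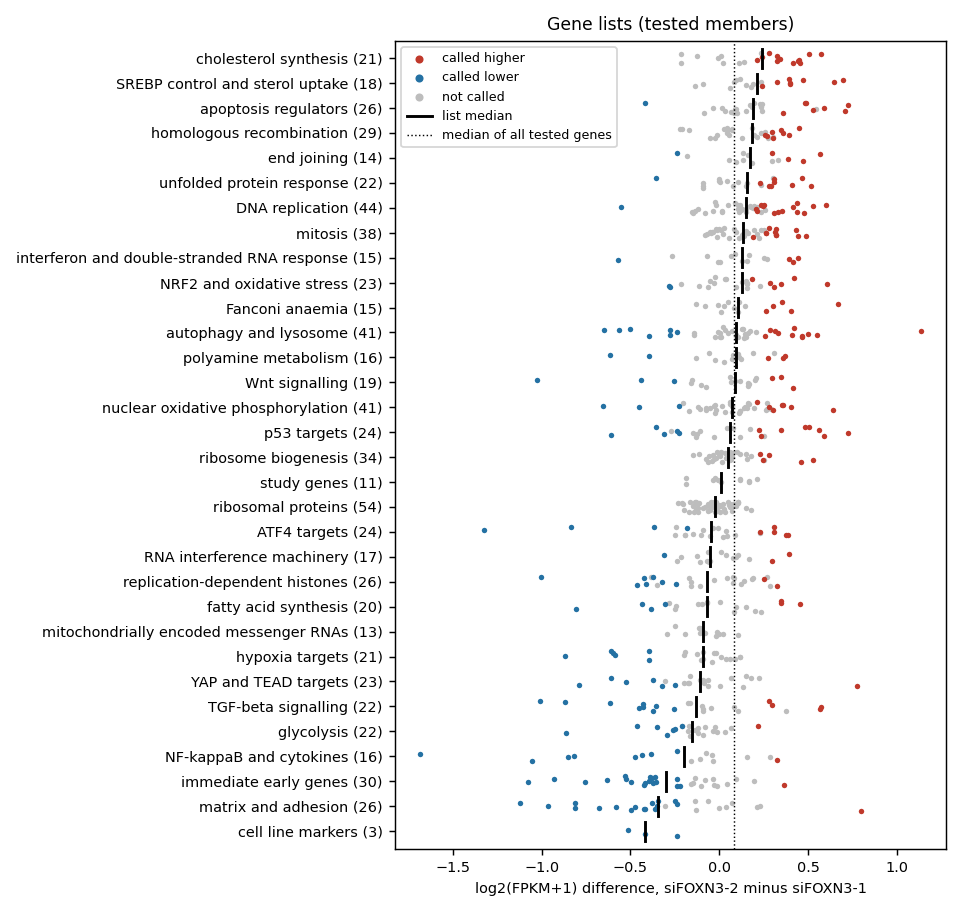
Members of each list with at least 3 tested genes are drawn by their log2(FPKM+1) difference, siFOXN3-2 minus siFOXN3-1, in red if called higher, blue if called lower and grey if not called, with a black tick at the list median and a dotted line at the median of all tested genes (0.08). Cholesterol synthesis is at the top with a median of 0.24, immediate early genes and matrix genes are near the bottom at -0.30 and -0.35, and no ribosomal protein gene was called.

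The next lists are set beside the 20.9% of all genes called higher and the 9.22% called lower. None of 54 ribosomal protein genes and none of 13 mitochondrially encoded messenger RNAs was called, with differences from -0.23 to 0.18 and from -0.29 to 0.11. Of the RNA interference machinery, 2 were called higher and 1 lower of 17 tested, with a median log2 difference of -0.05, with TARBP2, a Dicer partner, higher (0.39) and TNRC6B, an Argonaute-binding silencing factor, lower (-0.31), a call that ended in 12 of 19 alternatives. Of interferon and double-stranded RNA response genes, 3 were called higher and 1 lower of 15 tested, with a median log2 difference of 0.13. These shares, 20% and 6.67%, lay near those over all genes. The call lower was EIF2AK2, the kinase PKR, with 2.97, 3.11 and 3.22 FPKM with siFOXN3-2, against 5.45, 5.24 and 4.61 FPKM with siFOXN3-1 (log2 difference -0.57 ± 0.08 SE, limma adjusted p = 0.00169), and siControl, at 6.92, 7.31 and 7.03 FPKM, lay above both. STAT2 (0.45), IFIT1 (0.41) and IFIT5 (0.39) were the calls higher. Of replication-dependent histones, whose polyadenylated forms alone enter such libraries and whose near-identical copies share reads, 2 were called higher and 7 lower of 26 tested, with a median log2 difference of -0.07. Their share called lower, 26.9%, was above that of all genes, and their share called higher, 7.69%, was below it.

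Where siControl lay differed from gene to gene. Of the 2584 genes called higher, the siControl mean lay above both siRNAs in 1024 (39.6%), between them in 879 (34.0%) and below both in 681 (26.4%). Of the 1138 called lower, it lay below both in 340 (29.9%), between them in 358 (31.5%) and above both in 440 (38.7%). On the log2 scale siControl was nearer to siFOXN3-2 in 1478 (57.2%) of the genes called higher and in 507 (44.6%) of those called lower. These are counts of positions in FPKM as deposited, without a test and without the same counts over all tested genes. In siControl, messenger RNAs of the mitochondrial genome took 11.8 to 12.7% of the summed FPKM, above the share with either siRNA. Whether the positions depend on the scaling was not tested.

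Short words in the 3′ UTR went with the difference. The longest annotated 3′ UTR of each of 10381 tested genes (GENCODE 29) was searched for every 7-base word. For each of 16009 words present in at least 100 genes, the mean difference of the genes that hold it was adjusted for UTR length, GC content and expression. Words were ranked by this mean times the square root of the number of genes, so at an equal mean a commoner word ranks further out. AATAACA (1636 genes, adjusted mean -0.12) and ATAACAA (1389 genes, -0.13) ranked lowest, and GATTAGA (890 genes, 0.08) ranked highest. The words were picked on this same contrast, so the values below describe it and test nothing. The first 2 overlap and together make AATAACAA. The guide sequences of the siRNAs were not used here, so whether a word pairs with either guide was not tested.

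Among the 14 largest falls, 13 had an annotated 3′ UTR, of which 7 held AATAACA or ATAACAA, 4 the full AATAACAA and none GATTAGA. Among the 14 largest rises, 12 had one, of which 8 held GATTAGA, 4 AATAACA or ATAACAA and 1 the full AATAACAA. That 1 was PPIP5K2, with 2 copies of AATAACAA in a 3′ UTR of 11168 bases. SCOC was also among the 4. Of all genes with a 3′ UTR, 21.5% held AATAACA or ATAACAA, 5.92% AATAACAA and 8.57% GATTAGA. Sites from falls and rises are shown to let the context of each word be compared, as 30 bases 5′ to 3′ of the sense strand from GENCODE 29 transcripts on GRCh38, with the word in capitals. The falls are SLC25A5 at chrX:119471271-119471300 (plus strand), MTPN at chr7:135928365-135928394 (minus strand), CPEB4 at chr5:173958720-173958749 (plus strand) and UBTD2 at chr5:172209790-172209819 (minus strand). The rises are PPIP5K2 at chr5:103202089-103202118 (plus strand), CNOT8 at chr5:154876679-154876708 (plus strand), SCOC at chr4:140381311-140381340 (plus strand) and VCL at chr10:74120033-74120062 (plus strand).
SLC25A5: cactcctgataAATAACAAatttggagaaa
MTPN: tcaccctggttAATAACAAgttttactgat
CPEB4: gtagaaattaaAATAACAAaattgtctaca
UBTD2: catatgctttgAATAACAAttctctgggca
PPIP5K2: ttaaccgtttaGATTAGAatatctttccca
CNOT8: caatttgaaatGATTAGAaaatgtcaagta
SCOC: agagactttatGATTAGAattgcatatatt
VCL: ccctgaatgatGATTAGAgacatcaccgct

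FOXN3, the target of both siRNAs, holds AATAACA and GATTAGA in its coding sequence, and AATAACA or ATAACAA 1 time in its 3′ UTR. In the annotated transcript with the longest 3′ UTR, AATAACA occurs 2 times, and its first match in the coding sequence is at chr14:89162458-89162487 (minus strand). GATTAGA occurs once, in the coding sequence at chr14:89412313-89412342 (minus strand). These stretches are shown to let the words in the target be compared with those in the 3′ UTRs. Which part of FOXN3 each siRNA matches was not tested.
FOXN3 first word: ggtcctgtttgAATAACAtcaccaatcgga
FOXN3 second word: gcctgacatccGATTAGAagagggggccat

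The 615 genes with AATAACAA (5.92% of those with a 3′ UTR) had a median difference of -0.11, and 29.9% of them were called lower and 9.43% higher. With 2 or more copies (61 genes) the median was -0.18 and 34.4% were called lower. Genes with only AATAACA or ATAACAA (1618) had a median of 0.01, with 17.5% called lower, and genes with neither (8148) a median of 0.11, with 6.70% called lower. In the genes with 2 or more copies, 16.4% were also called higher, and their 3′ UTRs were longer (median 5069 bases, against 3337 with 1 copy). Of 297 genes called lower by 0.5 or more, 162 (54.5%) held AATAACA or ATAACAA, against 21.5% of all genes with a 3′ UTR.

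GATTAGA went the other way and less far. Its 890 genes had a median of 0.12 with 30.4% called higher, against 0.09 and 22.3% in the 9491 genes without it. Of 393 genes called higher by 0.5 or more, 88 (22.4%) held it, against 8.57% of all. Longer UTRs hold more words, so the classes were also set side by side within 3 groups of equal size by UTR length. In the group of short UTRs, genes with AATAACAA (44) had a median of -0.25 and those with GATTAGA (66) a median of 0.23, against 0.11 in genes with neither AATAACA nor ATAACAA and 0.11 in genes without GATTAGA. In the group of long UTRs the values were -0.09 for AATAACAA (426 genes), 0.10 for GATTAGA (612), 0.10 for neither first word and 0.05 for no GATTAGA. Each order was thus present in the short and the long group.

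**Figure D5:**
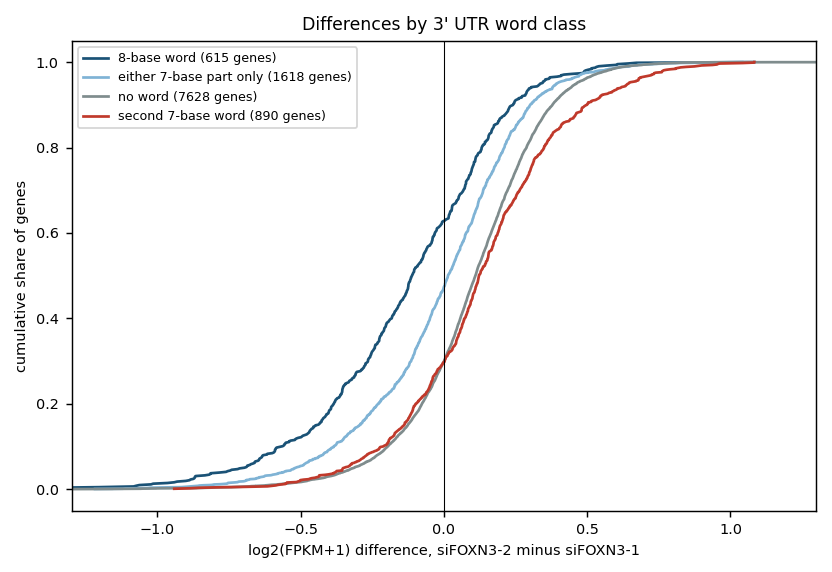
Cumulative shares of genes by log2(FPKM+1) difference, siFOXN3-2 minus siFOXN3-1, are drawn for genes whose 3′ UTR holds AATAACAA (8-base word, 615 genes), only AATAACA or ATAACAA (1618), GATTAGA (second 7-base word, 890) or none of these (7628). The AATAACAA curve lies left of the others along most of its length, and the GATTAGA curve parts from the curve without words among genes that are higher with siFOXN3-2.

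Set beside siControl, whose 3 samples both contrasts share, the genes with AATAACAA had median log2 differences of -0.16 for siFOXN3-2 minus siControl and -0.06 for siFOXN3-1 minus siControl. Genes with neither AATAACA nor ATAACAA had -0.08 and -0.19 in the same order. Genes with GATTAGA had -0.03 and -0.15, and those without it -0.09 and -0.16. In coding sequences the first word gave smaller values: 149 genes with AATAACAA in the coding sequence and neither AATAACA nor ATAACAA in the 3′ UTR had a median of -0.0023, with 14.1% called lower. For GATTAGA in the coding sequence alone (267 genes) the median was 0.14, with 34.1% called higher.

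The called members of the lists differed in how often they held these words. Of genes with a 3′ UTR, AATAACA or ATAACAA was held by 46.1% of those called lower and by 21.5% of all. Among list members called lower, either word was held by 5 of the 18 immediate early genes, 4 of the 16 matrix and adhesion genes and 5 of the 9 TGF-beta genes. The same held for 3 of the 6 hypoxia targets, 1 of the 8 cytokine genes and 1 of the 7 glycolytic genes called lower. GATTAGA was held by 11.4% of genes called higher and by 8.57% of all. None of the 12 cholesterol synthesis genes called higher held it, and 3 of the 7 apoptosis regulators did. IL11, SHMT2, TFPI2, IER3 and LIF, among the deepest falls, held neither AATAACA nor ATAACAA in the annotated 3′ UTR, while ITGAV and ZFP36L1 held AATAACAA.

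The kit did not mark strand, so reads of genes that overlap on opposite strands cannot be told apart. Of the genes chosen by the naming rule, 18 shared 10% or more of their exon length with another gene, among them SLC25A5, IER3, DDIT4, CCND1, VCL, ACAT2, MTHFD2, KRT18 and VIM. Of 136 such genes that were called, 37 lost the call when siFOXN3-2 replicate 1 stood alone against siFOXN3-1, a smaller design in which fewer calls follow from the sample number as well, among them STARD4, XRCC4, KEAP1, GCLM, MTHFD2, IFIT1, IFIT5, ACLY, SLC2A1, CCNA2 and TOP2A.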

How the data were processed

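RNA sequencing of H1299 cells gave 9 samples, grouped by their titles into siFOXN3-2, siFOXN3-1 and siControl with 3 each. The values were FPKM deposited by the authors in 1 table of 34789 genes, made, per the submitters' processing notes, on GRCh38 with StringTie 1.3.3b after HISAT2 2.1.0 and fastp 0.14.0. Which annotation release and counting options were used is not given in the sources used here. With GENCODE 29 exon lengths, 98.2 to 98.3% of values worth 1 to 50 reads were whole reads within 0.05, which gave the depth per sample and the reads used with voom as an alternative.

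FPKM were put on the log2 scale with a pseudocount of 1, so differences of low genes are understated. The 12339 genes that averaged 1 FPKM or more in the 6 siFOXN3-2 and siFOXN3-1 samples were fitted with limma 3.58.1 (R 4.3.3) with a mean-variance trend; degrees of freedom were 4 residual and 4.61 prior. Tests were two-sided, Benjamini-Hochberg adjusted over all tested genes, with 0.05 as the threshold. Differences are siFOXN3-2 minus siFOXN3-1. The code was tested on simulated data. Symbols were matched for 26757 genes (76.9%). The comparison, the 36 lists and the named genes' rule were chosen with earlier results of these data known. Named were the study genes that passed the filter, the 14 largest called rises and 14 largest falls with a symbol, no overlap and no small RNA, and for each list up to 4 called members, taken by smallest adjusted p; some of these are not reported here. Other list members named were picked for their place in the pathway after their values were seen, as were LYZ, PTPRC and the collagen genes. The alternatives were 2 other filters, no filter, a pseudocount of 0.1, 3 scalings, moderation without trend or robust, all 9 samples, the replicate number as a block, protein-coding genes only, voom, siFOXN3-2 replicate 1 alone and leaving out each sample. Words and figures were made with Python 3.11.15.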

Additional observations from a re-analysis of the deposited data

How the results depend on the processing

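Against 2584 genes higher and 1138 lower, no filter on low values gave 1436 and 704, median ratio scaling 1349 and 1623, quantile normalization 1577 and 1538, siFOXN3-2 replicate 1 alone 841 and 545, and a minimum of 1 on the log2 scale 13 and 34. Leaving out single samples gave 1264 to 2351 higher and 647 to 1004 lower, both lowest without siFOXN3-1 replicate 2, where 1248 and 634 of the same genes were called. The FOXN3 difference ranged from -0.22 to -0.15 over the left-out samples and was called with voom alone (-0.36). Same-numbered samples did not deviate together (correlations of -0.11, -0.09 and -0.28), so the numbers were not taken as pairs, and with the replicate block 1636 genes were higher and 849 lower, the FOXN3 difference being -0.18. Uncalled study genes changed sign. FBXW11 (0.010) turned to -0.086 with median ratio scaling and -0.070 with quantile normalization, and over the left-out samples ranged from -0.029 to 0.059. With siFOXN3-2 replicate 1 alone FOXN2 (0.17) turned to -0.000325, HDAC1 (-0.0060) to 0.034 and BRCA1 (-0.025) to 0.019. Over the left-out samples HDAC1 ranged from -0.026 to 0.016, BRCA1 from -0.047 to 0.016 and RPS6KA3 (-0.033) from -0.101 to 0.018. Besides these, named genes kept their status, called or not called, in 2747 gene and setting pairs. Calls were lost in 126 pairs and gained in 4, and list medians moved beyond their spread in 90 of 640. The cause was not tested. Depth limits short genes near the filter, where 1 FPKM stands for few reads.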

Other observations

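Calls followed gene class and level. Of 10430 protein-coding genes tested, 22.9% were called higher with siFOXN3-2 than with siFOXN3-1 and 9.74% lower, of 976 long non-coding RNA genes 12.4% and 6.45%, and of 717 pseudogenes 7.95% and 6.0%. With genes split into 3 groups of equal size by mean FPKM, 12.96% of the lowest were called higher and 6.13% lower, and of the highest 25.5% and 11.3%. By exon length, genes in the middle group of 3 had the most calls higher (27.6%, median difference 0.11) and genes in the long group the fewest (16.1%, median 0.05) together with the most calls lower (11.2%).

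The lists given next are read beside 20.9% called higher and 9.22% lower over all genes, and the shares of polyamine and oxidative phosphorylation genes lay near these. Of autophagy and lysosome genes, 11 were called higher and 7 lower of 41 tested, with a median log2 difference of 0.10. Subunits of the V-ATPase, the lysosomal proton pump, were split, with ATP6V1A higher (0.55) and ATP6V1H lower (-0.65), and BECN1, a core autophagy factor, was lower (-0.50). Of nuclear oxidative phosphorylation genes, 7 were called higher and 3 lower of 41 tested, with a median log2 difference of 0.07, a median below 0 under median ratio scaling, with ATP5PB of the ATP synthase stalk higher (0.64) and COX5A of cytochrome oxidase lower (-0.66). Of polyamine genes, 3 were called higher and 2 lower of 16 tested, with a median log2 difference of 0.09, of end joining genes, 4 were called higher and 1 lower of 14 tested, with a median log2 difference of 0.17, and of ribosome biogenesis genes, 5 were called higher and 0 lower of 34 tested, with a median log2 difference of 0.05, the last turning below 0 under median ratio scaling and quantile normalization. Of Wnt genes, 3 were called higher and 3 lower of 19 tested, with a median log2 difference of 0.09, again below 0 under these scalings, with CCND1, cyclin D1, at 55.6, 56.1 and 63.3 FPKM with siFOXN3-2, against 115, 122 and 122 FPKM with siFOXN3-1 (log2 difference -1.02 ± 0.07 SE, limma adjusted p = 2.40e-04).

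More traces of blood cell genes were higher with siFOXN3-2, in genes under the filter and without a test, picked after their values were seen. S100A8, the partner of S100A9, had 0.76, 0.485 and 0.385 FPKM with siFOXN3-2, 0, 0 and 0 with siFOXN3-1 and 0.372, 0.414 and 0.0508 in siControl. TYROBP, a signalling adaptor of myeloid cells, had 0.324, 0.598 and 0.427 FPKM with siFOXN3-2, 0, 0 and 0 with siFOXN3-1 and 0.118, 0.172 and 0.113 in siControl. HLA-DRA, a chain of MHC class II, had 0.827, 0.847 and 0.735 FPKM with siFOXN3-2, 0, 0 and 0.0446 with siFOXN3-1 and 0.251, 0.203 and 0.479 in siControl. All 3 were higher in every siFOXN3-2 sample than in every siFOXN3-1 sample, and the source of these reads was not tested.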
